A study of Mus musculus with 12 samples.

Results

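The 10 genes described here are the TGF-beta ligand Tgfb1, the receptors Tgfbr1 and Tgfbr2, the coreceptor Eng, the signal transducers Smad2, Smad3 and Smad4, the inhibitor Smad7 and the repressors Ski and Skil. They were chosen by name and not by a rule on their values, although earlier results of these data were known. All 10 were found among the 35999 genes of the table. RNA was measured in LSK cells, a bone marrow fraction that lacks lineage markers, carries Sca-1 and KIT, and holds hematopoietic stem cells and multipotent progenitors, from 6 WT mice and 6 Fancg KO (Fancg-/-) mice with 1 library per mouse. The KO mice lack a Fanconi anemia (FA) core complex gene in all cells, no treatment is named for any library, and the strain, age and sex of the mice are not given in the sources used here. Values are called signal, which is the estimated read count of a gene scaled per library by the authors, and fold changes are on the log2(signal + 1) scale, which understates the change of low genes. Genes were tested where their signal averaged 10 or more across the 12 libraries, which 9 of the 10 genes and 8887 genes in all did. Smad3 was below this level.

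TGF-beta is secreted in a latent complex, and once released it binds a type II receptor that activates a type I receptor. The type I receptor phosphorylates Smad2 and Smad3, which join Smad4 and enter the nucleus, where Ski and Skil hold their targets in check. In the bone marrow this signal is known for keeping stem cells quiescent, and a hyperactive TGF-beta pathway has been tied to the marrow failure of FA.

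The libraries held a summed signal of 1576081 to 2672915, or roughly 1235110 to 2471413 reads. For this the most frequent low value of each library was taken as the value of 1 read. At this depth the 10 genes rest on between 3 and 139 reads per library, so counting error is part of the spread. The targeted gene Fancg had a signal of 10.3 ± 6.96 (SD, n = 6) in WT and 8.53 ± 4.18 (SD, n = 6) in KO libraries and did not separate the labels (log2 fold change -0.20, exact permutation test, two-sided, p = 0.636), so directions below are between the libraries labelled KO and those labelled WT. The summed Y-linked signal was low in WT replicate 3 (26.6) and KO replicate 7 (49.7), against 189 to 435 elsewhere. Of the LSK markers Kit had a signal of 283 to 435, Cd34 of 528 to 728 and Meis1 of 244 to 394 in every library, whereas Ly6a, which encodes Sca-1, had only 4.84 to 17.4. Other cell types were checked through their markers. The erythroid list summed to at most 18.8 and the granule genes S100a8, S100a9, Ltf, Ngp and Camp had at most 2.54 each. In contrast, the granulocyte markers Mpo and Elane had 255 to 1650 and 6.02 to 269.9. The monocyte and macrophage list summed to 39.2 to 172 in WT and 54.9 to 181 in KO libraries. For the B cell list the sums were 24.8 to 184 and 34.7 to 291, and for the T and NK cell list 35.9 to 59.3 and 32.4 to 76.4. Among endothelial genes, relevant for Eng, Cdh5 was listed at 0 in 10 of 12 libraries, while the 6 endothelial markers other than Pecam1 summed to 102 to 154 in WT and 91.7 to 301 in KO libraries. Pecam1 itself had an outsized signal of 17812 to 76164. In sorted bulk cells, fewer cells of a type and less RNA per cell cannot be told apart.

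Tgfb1 and Eng had the highest signal per transcript length of the 10 genes, and their promoters are shown because they differ in sequence make-up. RefSeq promoter windows (GRCm38.p6) were found for 6 of the 10 genes (Tgfb1, Tgfbr1, Tgfbr2, Eng, Smad3 and Ski), 7 windows in all since Tgfbr1 had a pair of starts. The 250 bases before each start were searched on both strands for CAGAC, the core of the CAGA box bound by Smad3 and Smad4, and for GGGCGG, the GC box bound by Sp1, which do not overlap each other in letters. Both are printed 5′ to 3′ on the plus strand, with matches in either orientation in capitals.
Tgfb1, chr7:25686752-25687001: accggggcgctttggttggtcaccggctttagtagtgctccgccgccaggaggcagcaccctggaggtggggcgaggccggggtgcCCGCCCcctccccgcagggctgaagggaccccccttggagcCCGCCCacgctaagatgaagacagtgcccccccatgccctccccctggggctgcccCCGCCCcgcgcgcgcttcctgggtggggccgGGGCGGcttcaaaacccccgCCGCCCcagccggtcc
Eng, chr2:32646345-32646594: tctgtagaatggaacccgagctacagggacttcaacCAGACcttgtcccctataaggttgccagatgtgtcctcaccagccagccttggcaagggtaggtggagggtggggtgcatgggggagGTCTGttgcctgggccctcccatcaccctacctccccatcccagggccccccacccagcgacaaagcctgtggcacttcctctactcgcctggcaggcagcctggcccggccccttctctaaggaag

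The Tgfb1 window held 5 GC boxes and 0 CAGAC, with 75.2% G and C. The Eng window held 2 CAGAC and 0 GC boxes, with 62.4% G and C. Ski, with 5 GC boxes and 87.6% G and C, resembled Tgfb1, while the Tgfbr2 window had 1 CAGAC and 0 GC boxes. CAGAC stood in 3 of the 7 windows, against 42.2% of 32851 windows of all genes, and GGGCGG in 4 of 7, against 32.7%. These matches describe letters only.

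No difference between KO and WT libraries was found for any of the 9 genes tested. In limma over 8887 genes with Benjamini-Hochberg adjustment, 0 of the 9 had an adjusted p under 0.05, as was so for 0% of all genes, and 0 of the 9 had an unadjusted p under 0.05, against 3.67% of all genes (1.98% higher and 1.69% lower in KO). With the replicate number of the titles as a block, 0 of the 9 had an unadjusted p under 0.05 in limma, against 5.36% of all genes. Their log2 fold changes lay between -0.30 and 0.13 with a median of -0.01, and the median over all genes tested was 0.0031. The median absolute log2 fold change was 0.13 for the 9 genes and 0.15 for all genes tested. The groups overlapped for all 10 genes, and failed to overlap for 0.09% of all genes tested. A p that misses the threshold does not show equal levels, and the 95% intervals below state which changes the data still allow.

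**Figure D1:**
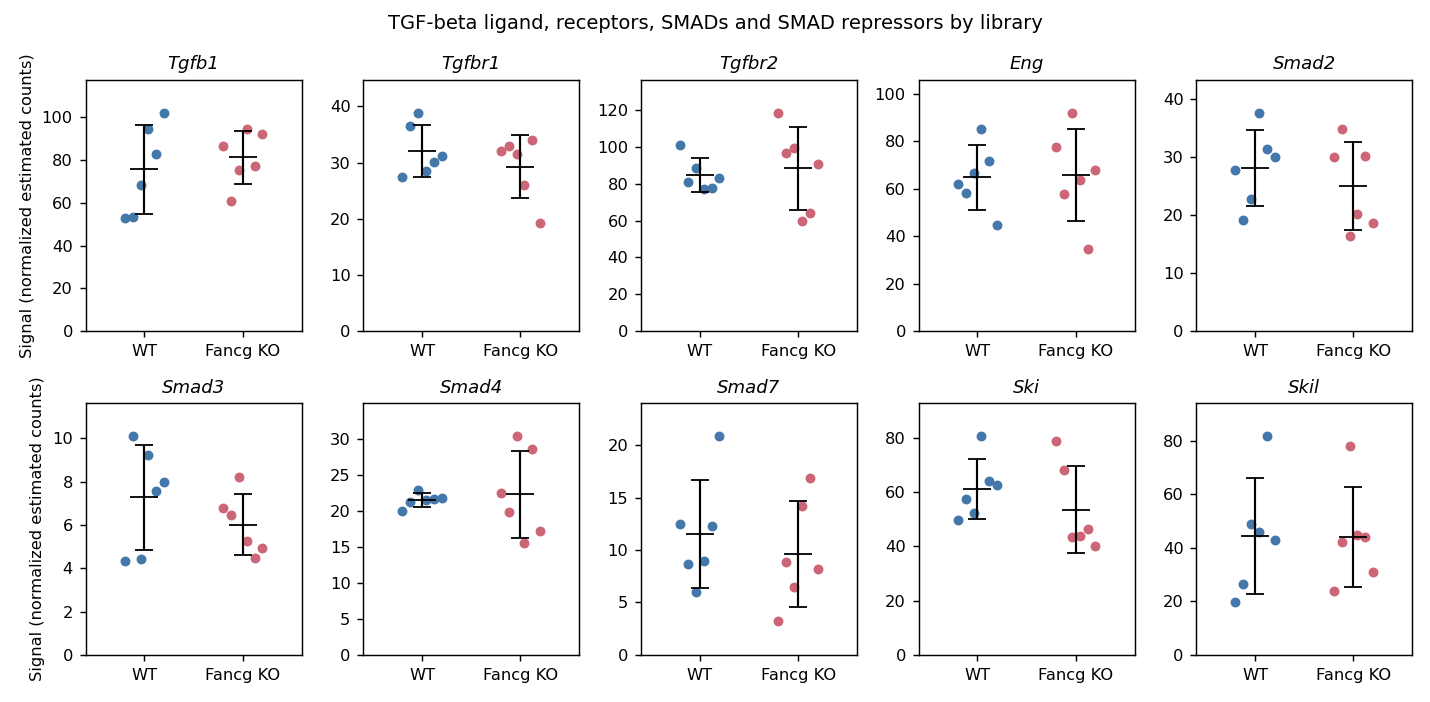
Signal (normalized estimated counts, linear axis from 0) of each of the 10 genes in the 6 WT and 6 Fancg KO libraries. Each point is 1 library, the bar is the mean and the whiskers are 1 SD. The clouds of the genotypes overlap in every panel, and Smad4 shows the tightest WT group (19.99 to 22.8).

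Tgfb1, on chromosome 7 from 25687002 to 25705077 (ENSMUSG00000002603.15), encodes the ligand that blood cells make most of. Its signal ran from 53.0 to 102 in WT libraries (median 75.5) and from 61.1 to 94.6 in KO libraries (median 82.0). Both the highest and the lowest library were WT, and the KO values lay inside the WT range. The log2 fold change of 0.13 (standard error 0.19, 95% interval -0.27 to 0.53, limma adjusted p = 0.9996) allows levels from 0.83-fold to 1.44-fold in KO cells. Tgfb1 was in effect the one isoform present. Tgfb2 and Tgfb3, the other ligand genes of the family, had mean signals of 0.041 and 0.31, and Tgfb1 made up between 99.1% and 100% of the signal per length of all 3 in every library.

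The receptor genes were measured in every library. Tgfbr1, on chromosome 4 from 47353222 to 47414931 (ENSMUSG00000007613.15), encodes the type I receptor kinase (ALK5) and had a signal of 27.4 to 38.9 in WT (median 30.6) and 19.3 to 34.0 in KO libraries (median 31.8). Of the 6 KO libraries 4 fell within the WT range, and KO replicate 7 was the lowest of all. KO against WT gave a log2 fold change of -0.14 (standard error 0.18, 95% interval -0.51 to 0.23, limma adjusted p = 0.9996), and of 0.0095 without WT replicate 3 and KO replicate 7 together. Tgfbr2, on chromosome 9 from 116084293 to 116175360 (ENSMUSG00000032440.13), encodes the type II receptor that binds the ligand first. Its signal ran from 76.9 to 101.2 in WT (median 82.2) and from 60.1 to 119 in KO libraries (median 93.9). The KO group was the wider, with an SD of 22.4 against 9.09 in WT, and held both the highest and the lowest library. For Tgfbr2 the log2 fold change was 0.025 (standard error 0.17, 95% interval -0.34 to 0.39, limma adjusted p = 0.9996). Per length, Tgfbr2 exceeded Tgfbr1 in 12 of 12 libraries, by 1.58 to 2.63 times in WT (median 1.87) and by 1.34 to 3.35 times in KO libraries (median 2.17).

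Eng, on chromosome 2 from 32646595 to 32682669 (ENSMUSG00000026814.16), encodes endoglin, a coreceptor on endothelial cells that also marks stem cells. Its signal ran from 44.7 to 85.3 in WT (median 64.2) and from 34.7 to 92.1 in KO libraries (median 65.8). The KO libraries spanned the WT range on both sides. Their log2 fold change was -0.012 (standard error 0.22, 95% interval -0.47 to 0.45, limma adjusted p = 0.9996). Eng overlaps 1 gene on the opposite strand, Fpgs, and 3 small RNA genes on its own strand, and whether strand was used in counting is not given in the sources used here. The partner through which endoglin acts in vessels, the type I receptor Acvrl1, had a mean signal of 2.498 and was at 0 in 3 of 12 libraries.

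**Figure D2:**
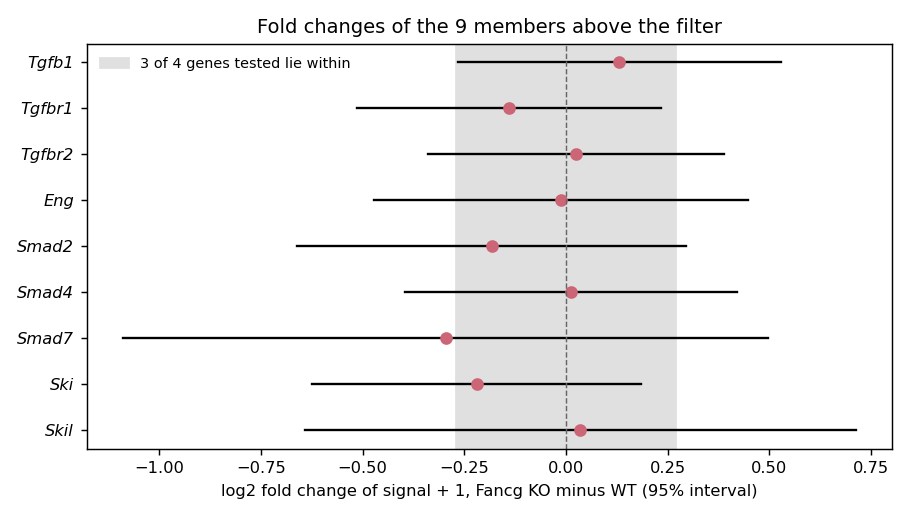
Log2 fold change (Fancg KO minus WT, n = 6 and 6) of the 9 genes above the filter, with 95% intervals from limma. The grey band reaches to 0.27 on either side of 0, within which 75% of all genes tested lie. Every interval includes 0, and the interval of Smad7 is the widest.

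Among the signal transducers, Smad2, on chromosome 18 from 76241580 to 76310963 (ENSMUSG00000024563.16), had a signal of 19.3 to 37.7 in WT (median 29.0) and 16.4 to 34.9 in KO libraries (median 25.1). The KO values fell into a higher group of 3 libraries at 30.1 to 34.9 and a lower group of 3 at 16.4 to 20.1, and the WT values ran through the gap between them. For Smad2 the log2 fold change was -0.18 (standard error 0.23, 95% interval -0.66 to 0.30, limma adjusted p = 0.9996). Smad3, on chromosome 9 from 63646767 to 63757994 (ENSMUSG00000032402.12), binds DNA directly, as Smad4 does, and had the lowest level of the 10 genes. Its signal was 4.35 to 10.1 in WT (median 7.77) and 4.47 to 8.22 in KO libraries (median 5.86), resting on 3.07 to 13.6 reads. KO against WT gave -0.20 on the log2 scale, which did not pass (exact permutation test, two-sided, p = 0.364). Smad2 exceeded Smad3 per length in 12 of 12 libraries, by 1.201 to 4.03 times in WT (median 2.59) and 1.26 to 4.26 times in KO libraries (median 2.60). Smad4 per length exceeded Smad2 in 12 of 12 libraries too, by 1.35 to 4.43 times.

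Smad4, on chromosome 18 from 73639009 to 73703780 (ENSMUSG00000024515.13), encodes the common partner of all activated SMADs. Its signal ran from 19.99 to 22.8 in WT (median 21.6) and from 15.5 to 30.4 in KO libraries (median 21.1). The WT libraries agreed within a coefficient of variation of 4.32%, against 27.1% in KO, while the means were nearly level at 21.5 and 22.3. Smad4 had a log2 fold change of 0.013 (standard error 0.19, 95% interval -0.39 to 0.42, limma adjusted p = 0.9996). With a median of 20.5 reads per library, the pooled spread of Smad4 (0.27 on the log2 scale) was no larger than the counting error (0.30), and the difference in spread between genotypes was not tested. A processed pseudogene lies opposite to Smad4.

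Smad7, on chromosome 18 from 75367529 to 75395935 (ENSMUSG00000025880.11), encodes the inhibitory SMAD that blocks the type I receptor and is itself switched on by TGF-beta. Its signal ran from 6.04 to 20.9 in WT (median 10.6) and from 3.24 to 16.9 in KO libraries (median 8.53). The libraries of both genotypes were scattered over this range, with a 6.44-fold difference between the highest, WT replicate 7, and the lowest, KO replicate 2. Smad7 had a log2 fold change of -0.30 (standard error 0.37, 95% interval -1.09 to 0.50, limma adjusted p = 0.9996). With each library left out in turn it lay between -0.48 and -0.06, the latter without KO replicate 2. The interval still allows levels from 0.47-fold to 1.41-fold in KO cells.

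Ski and Skil encode related nuclear repressors that bind Smad2, Smad3 and Smad4. Ski, on chromosome 4 from 155154075 to 155222592 (ENSMUSG00000029050.15), had a signal of 49.9 to 80.6 in WT (median 60.2) and 40.1 to 78.7 in KO libraries (median 45.1). All but 2 of the KO libraries lay below every WT library, and replicates 2 and 3 of the KO group were at 78.7 and 68.3. Ski had the smallest p of the 9 genes, with a log2 fold change of -0.22 (standard error 0.19, 95% interval -0.62 to 0.18, limma adjusted p = 0.9996). Skil, on chromosome 3 from 31095058 to 31122577 (ENSMUSG00000027660.16), had a signal of 19.7 to 81.7 in WT (median 44.4) and 23.8 to 78.0 in KO libraries (median 43.2). Both groups covered nearly the same span, and WT replicate 6 stood 4.15 times above WT replicate 2. For Skil the log2 fold change was 0.035 (standard error 0.32, 95% interval -0.64 to 0.71, limma adjusted p = 0.9996). Per length, Ski exceeded Skil in 10 of 12 libraries, with ratios from 0.68 to 4.03.

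Skil and Smad7 were the most variable of the 9 genes within genotypes. Their pooled SD on the log2 scale was 0.64 and 0.66, at the 84.2 and 86.0 percentile of all genes tested, while Tgfbr1 and Smad4 were at the 14.2 and 16.8 percentile. For Skil this was 2.68 times the counting error expected from its reads, for Eng 2.15 times and for Tgfb1 1.96 times. For Smad7, which rests on 3 to 19.3 reads per library, it was 1.505 times.

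Per length of the longest coding transcript, the levels of the 10 genes spanned more than an order of magnitude. Tgfb1 led with 36.1 ± 7.65 signal per kb (SD, n = 12), followed by Eng (19.1 ± 4.66), Tgfbr2 (10.7 ± 2.02), Ski (10.4 ± 2.48), Skil (6.58 ± 2.87), Smad4 (6.47 ± 1.23), Tgfbr1 (5.33 ± 0.89), Smad2 (3.29 ± 0.86), Smad7 (2.48 ± 1.16) and Smad3 (1.31 ± 0.39). Of the 9 neighbours in this order, Tgfbr2 and Ski did not differ beyond their spread (Tgfbr2 was the higher in 5 of 12 libraries, exact sign-flip over libraries, adjusted p = 0.650), nor did Skil and Smad4 (adjusted p = 0.650). The other 7 steps passed, with adjusted p between 0.0015 and 0.035. With all exons of the gene as the length, Eng came before Tgfb1 (16.1 against 15.6) and Skil after Smad4 and Tgfbr1. Tgfb1 has 5042 exon bases against 2175 in its coding transcript, and Skil 9694 against 6717.

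**Figure D3:**
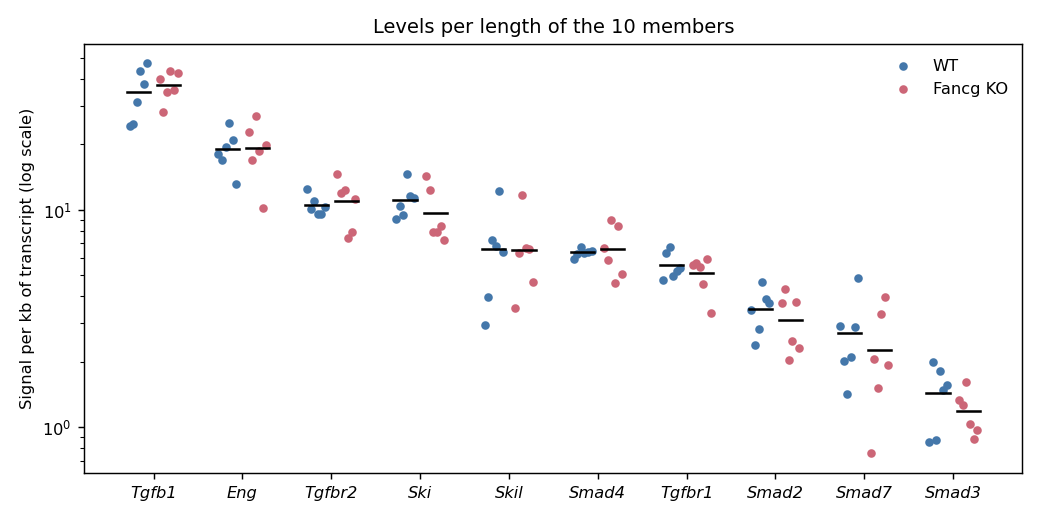
Signal per kb of the longest coding transcript (log axis) of the 10 genes, ordered by their mean over 12 libraries. Points are single libraries of WT (blue) and Fancg KO (red), and bars are group means. Tgfb1 stands at the top with a mean of 36.1 and Smad3 at the bottom with 1.31, and the genotypes lie side by side at each gene.

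Over the 36 pairs of the 9 genes, Pearson correlations of the log2 values across 12 libraries ran from -0.68 to 0.76, and 0 pairs passed an adjusted p of 0.05 (3 had an unadjusted permutation p under 0.05). The closest pair was Smad2 with Ski, with r = 0.76 (permutation p = 0.0051, adjusted p = 0.182) and rho = 0.78 (permutation p = 0.0040, adjusted p = 0.143). It was 0.70 within WT and 0.77 within KO libraries, and 0.64 without the 2 libraries farthest from the median of Smad2. Smad7 ran opposite to Tgfbr2, with r = -0.68 (permutation p = 0.0145, adjusted p = 0.206) and rho = -0.59 (permutation p = 0.05001, adjusted p = 0.450). For this pair r was 0.033 within WT and -0.94 within KO libraries. Without the 2 libraries farthest from the median of Tgfbr2 it was -0.48. KO replicate 2 had both the highest Tgfbr2 and the lowest Smad7 signal. Smad7 also ran opposite to Eng (r = -0.68, permutation p = 0.0172, adjusted p = 0.206; rho = -0.62, permutation p = 0.0380, adjusted p = 0.450), with r = -0.62 within WT and r = -0.74 within KO libraries, and without the 2 libraries farthest from the median of Eng r was -0.40. The libraries were also scaled to equal totals without Lars2, a gene that took 15.6% to 36.2% of a library. This scaling multiplies every gene of a library by 1 factor. All 36 correlations were then higher, between 0.063 and 0.91, and 13 pairs had an adjusted permutation p under 0.05. Smad2 with Ski was again the highest. The part of the shared factor in the values of single pairs was not tested.

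The wider pathway was examined through 103 further genes in 7 lists by role, of which 54 passed the filter on low signal. Of these 54, 0 had an adjusted p under 0.05 from limma and 1 had an unadjusted p under 0.05, namely Ltbp3, with a lower value in KO libraries. This share of 1.85% stands against 3.67% of all genes tested. The median log2 fold change of the 54 genes was 0.017, with 31 above and 23 below 0.

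Ltbp3 encodes a latent TGF-beta binding protein, which helps to fold and secrete the ligand and tethers it to the matrix. Its signal ran from 21.0 to 38.7 in WT (mean 28.4 ± 5.85, SD, n = 6) and from 4.18 to 27.3 in KO libraries (mean 16.3 ± 7.89, SD, n = 6). KO replicates 2 and 3 reached into the WT range, and the other 4 KO libraries lay below every WT library. Ltbp3 had a log2 fold change of -0.92 (standard error 0.33, limma p = 0.0136, adjusted p = 0.9996, exact permutation p = 0.0173) and rank 73 of the 8887 genes by p. Ltbp3 rested on roughly 2.60 to 38.5 reads per library, with the fewest in KO replicate 7. That library, at a signal of 4.18, moved the value most, and without it the log2 fold change was -0.60 (limma adjusted p = 0.9999). The difference fails the correction over all genes tested, with an adjusted p between 0.889 and 0.99999 over the alternative fits.

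The other 4 tested genes of the 24 for ligands and latency passed no threshold. Nrros, which anchors latent TGF-beta on myeloid cells, was the highest of them at 187 ± 79.2 (SD, n = 6) in WT and 204 ± 77.5 (SD, n = 6) in KO libraries (log2 fold change 0.14, limma adjusted p = 0.9996). Furin, the protease that cleaves the precursor, had a log2 fold change of 0.24, and the integrin chain Itgav one of -0.26. Ltbp1, a relative of Ltbp3 named here after its values were seen, ran from 0 in WT replicate 6 to 132 in KO replicate 7, with a log2 fold change of 0.94 and a standard error of 0.85 (limma adjusted p = 0.9996). Apart from these, all 19 remaining genes of the list, among them the activins, BMPs and Thbs1, had a mean signal under 5.

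**Figure D4:**
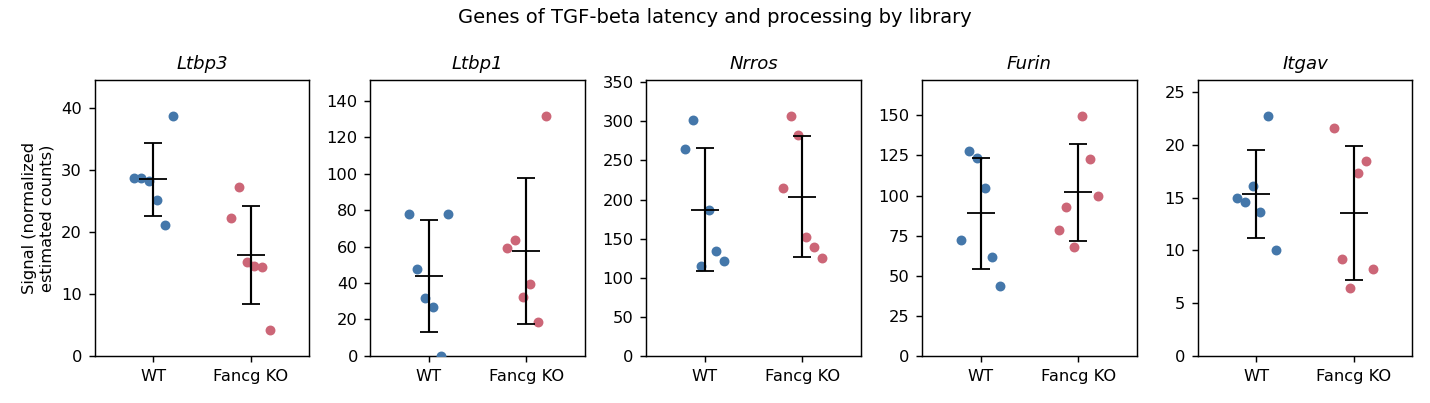
Signal (normalized estimated counts, linear axes from 0) of 5 genes of TGF-beta latency and processing in 6 WT and 6 Fancg KO libraries. Points are libraries, bars means and whiskers 1 SD. Ltbp3 has a mean of 28.4 in WT and 16.3 in KO libraries with overlap of 2 KO libraries, and the other 4 genes overlap widely.

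Of 14 other receptors and coreceptors, 5 were tested and 0 passed an unadjusted p of 0.05. Bmpr2, the type II receptor for BMPs, was the highest at 86.5 ± 15.2 (SD, n = 6) in WT and 77.2 ± 15.2 (SD, n = 6) in KO libraries, with a log2 fold change of -0.17. Fkbp1a, which keeps type I receptors silent, had the smallest p of the list (log2 fold change -0.20, limma adjusted p = 0.9996). The BMP type I receptor genes Bmpr1a and Bmpr1b had mean signals of 0.35 and 0. The activin receptor genes Acvr1b and Acvr2a had log2 fold changes of 0.044 and -0.10, and Tgfbr3, which encodes betaglycan, one of 0.18.

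Of the other 4 SMADs, Smad1 and Smad5, which transduce BMP signals, were tested and Smad6 and Smad9 were nearly silent (mean signals 0.33 and 1.21). Smad5 had a signal of 77.8 ± 12.8 (SD, n = 6) in WT and 84.6 ± 24.4 (SD, n = 6) in KO libraries (log2 fold change 0.093, limma adjusted p = 0.9996). Per length, Smad5 (12.3 ± 2.87 signal per kb, SD, n = 12) and Smad1 (8.12 ± 1.49) stood above Smad2 and Smad3, the transducers of TGF-beta itself.

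Of 16 adaptors and ubiquitin enzymes, 14 were tested and 0 passed, with log2 fold changes from -0.30 to 0.31. Usp11, a deubiquitinase of the type I receptor, had the smallest p (log2 fold change -0.30, limma adjusted p = 0.9996). Usp9x, which removes ubiquitin from Smad4, was the highest at 231 ± 37.3 (SD, n = 6) in WT and 276 ± 56.5 (SD, n = 6) in KO libraries (log2 fold change 0.25, limma adjusted p = 0.9996). Of 17 nuclear partners, 14 were tested and 0 passed, with a median log2 fold change of 0.10. Of these 14 genes 12 had a log2 fold change above 0, as did 4507 of all 8887 genes tested, and whether the list differs from other genes was not tested. Zeb2, a SMAD-binding repressor, had the smallest p (log2 fold change 0.34, limma adjusted p = 0.9996), and the chromatin remodeller Smarca4 the highest signal (311 ± 52.2 in WT and 343 ± 66.5 in KO libraries, SD, n = 6 each).

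Of 18 genes listed for their response to TGF-beta, 6 passed the filter on low signal, as did 8887 of all 35999 genes. Of the 6 tested, 0 had an unadjusted p under 0.05, with a median log2 fold change of -0.0059. Cited2 had the smallest p (log2 fold change 0.19, limma adjusted p = 0.9996), and Cdkn1b, a cell cycle inhibitor, was the highest at 102 ± 20.9 (SD, n = 6) in WT and 100.8 ± 20.4 (SD, n = 6) in KO libraries. Cdkn1a (mean signal 8.80), Id1 (1.35) and Cdkn2b (0) stayed below the filter. In limma without the filter, 3 of 98 pathway genes had an unadjusted p under 0.05, as did 836 of all 21536 genes. Among the response genes these were Id1 and Bhlhe40, with the higher value in KO and an adjusted p of 0.889. Id1 (log2 fold change 1.146) had a mean signal of 0.28 in WT and 2.42 in KO libraries. It was at 0 in 7 of 12 libraries and reached at most 1.71 in WT, so its values lie at the floor. Bhlhe40 (log2 fold change 1.11) had means of 2.69 in WT and 7.45 in KO libraries. Its mean signal of 5.07 was also below the filter, and its lowest WT library was at 0.55. In the arm that does not use SMADs, 8 of 10 genes were tested and 0 passed, and Rock1, a kinase downstream of RhoA, had both the highest signal and the smallest p (log2 fold change 0.088, limma adjusted p = 0.9996).

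**Figure D5:**
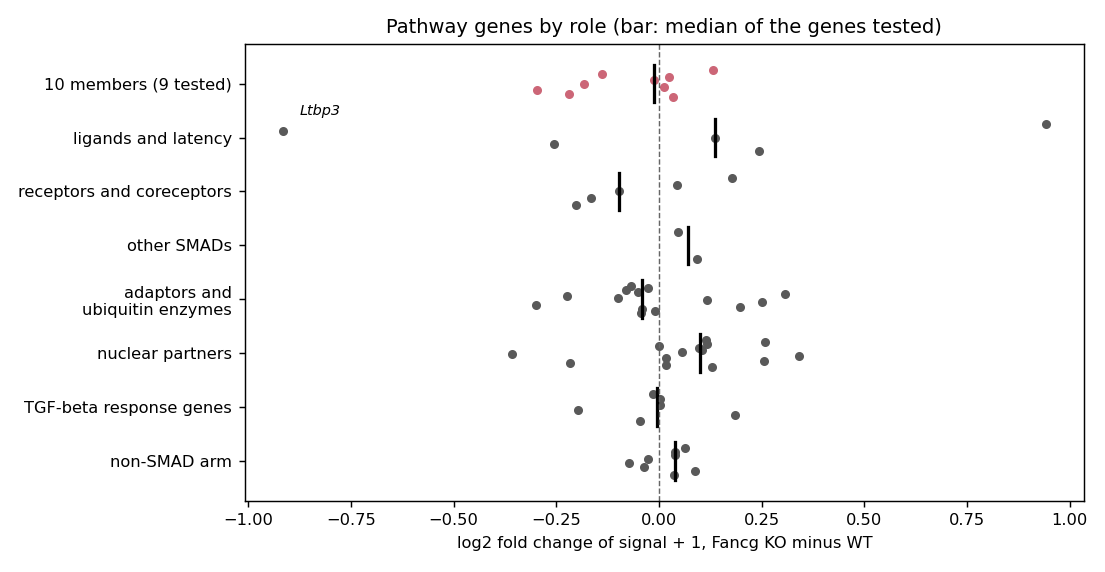
Log2 fold change (Fancg KO minus WT) of the tested genes, 1 point per gene, for the 10 genes of the report (9 tested, red) and the 7 pathway lists (grey). Black bars are medians. The points cluster around 0, the point at the far left being Ltbp3 (-0.92) and that at the far right Ltbp1 (0.94).

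Markers of other cells were set beside these values. The stromal list summed to 67.9 to 106 in WT and 62.0 to 88.2 in KO libraries (exact permutation test, p = 0.0195, 1 of 9 marker lists compared and not adjusted), and nearly all of it was Pdgfrb, since the other 4 stromal markers summed to 0.32 to 3.45. The megakaryocyte list, of a lineage rich in Tgfb1, summed to 15.8 to 56.1 in WT and 24.6 to 87.3 in KO libraries (exact permutation test, p = 0.0693). The LSK list summed to 1732 to 2267 in WT and 1415 to 2127 in KO libraries (exact permutation test, p = 0.227). For the endothelial, erythroid, granulocyte, monocyte, B cell and T and NK cell lists the exact permutation p lay between 0.357 and 0.948. The genes of early granulocyte precursors, Mpo (255 to 1650) and Elane (6.02 to 269.9), carried most of the granulocyte sum. Nearly all of the endothelial sum was Pecam1, so its exact permutation p of 0.948 speaks for Pecam1 only. The 6 endothelial markers other than Pecam1 (means of 125 in WT and 158 in KO libraries when summed) were not tested. The part of these cells in the values of Ltbp3 and Tgfb1 was not tested.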

How the data were processed

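RNA-seq of sorted LSK cells from 6 WT and 6 Fancg KO mice was analysed. The authors deposited 1 table whose values are signal, read here as estimated counts that were scaled by a size factor in each library. The submitters' processing notes name kallisto, and the mouse build and annotation are not given in the sources used here. All 35999 gene names were found in GENCODE vM21 (GRCm38), from which positions and lengths were taken. The columns were matched to libraries by title, and 0 columns were unused. Values were used as they stood.

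Genes whose signal averaged 10 or more were tested two-sided on log2(signal + 1) with limma 3.58.1 in R 4.3.3 (trended empirical Bayes, Benjamini-Hochberg over 8887 genes). Single genes were also tested by exact permutation over all divisions into 6 and 6 libraries, and neighbouring levels per length by exact sign-flip over libraries. The planned sign-flip test of same-numbered libraries is not given, since the numbers did not meet the criterion for pairs. Correlations used 100000 permutations. Only 10.4% to 11.4% of the values above 0 were whole multiples (within 0.001) of the value of 1 read, so count tests were not used.

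Data were simulated with 8887 genes for KO against WT, with normal noise drawn independently for each gene and library. In them 56 of 100 changes of 1 and 94 of 100 changes of 2 on the log2 scale were called, with 6 unchanged genes. Correlation between genes or between same-numbered libraries was left out. The number of genes changed in the real data is not known, and the adjustment depends on it. These shares may therefore differ in the real data.

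Named pathway genes were those with an unadjusted p under 0.05 and, per list, the smallest p and the highest signal. Other genes named were added for their role after the values were seen. The genes and lists were chosen with earlier results of these data known.

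Alternatives were pseudocounts of 0.5 and 5, no filter or a mean signal of at least 50, median-of-ratios, equal-total and quantile scaling, limma without trend, the replicate block, and libraries left out. Depth limits precision, and permutation p measure the spread between these mice.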

Additional observations from a re-analysis of the deposited data

Results flagged for a closer look

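A value is listed here when 1 library lay far from the other 5 of its genotype by a gap test (Dixon). Of 46 groups of 6 libraries examined, 2 met it, and chance gives 2.3. WT replicate 7 stood apart for Fancg, at 24.1, where the remaining WT libraries lay between 4.76 and 9.40. KO replicate 4 stood apart for Usp9x, the Smad4 deubiquitinase, at 387, where the remaining KO libraries lay between 232 and 273. In these values, which are signal, none of the 10 TGF-beta genes met the criterion.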

How the results depend on the processing

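In limma, the count of the 9 tested genes with an unadjusted p under 0.05 was 0 under all 22 alternative fits, of which the filter at 50 left only 4 of the 9 to test, with a lowest p of 0.077 (Ski), and the count of all genes with an adjusted p under 0.05 was also 0 (unadjusted, 326 of 8887). All genes past an unadjusted p of 0.05 numbered 836 of 21536 tested without a filter, 91 of 3119 with a mean signal of at least 50, 124 of 8887 with equal totals without Lars2, and 275 to 383 with each library left out. Pathway genes past it numbered 3 of 98 tested without a filter (Ltbp3, with Bhlhe40 and Id1), 0 of 32 with a mean signal of at least 50, where Ltbp3 is not tested, and 1 to 2 with each library left out. The second gene was Usp11 without WT replicate 5, Zeb2 without WT replicate 6 and Ncor1 without KO replicate 3.

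Same-numbered libraries had deviations correlated by 0.086 to 0.36 (mean 0.20), against a mean of -0.039 for libraries of different number. Of the 12 libraries, 9 correlated best with their own number, a hint from the data that some numbers are shared. The numbers were not taken as pairs, because a correlation above 0.1 was asked of every pair and 4 of 6 had one. With the replicate block 476 genes (5.36%) passed an unadjusted p of 0.05, and 3 pathway genes did (Ltbp3, Usp9x and Zeb2). The block left every call among the TGF-beta genes as it was.

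Log2 fold changes near 0 changed sign. Without WT replicate 3 and KO replicate 7, the pair low in Y-linked genes, Tgfbr1 was at 0.0095, Tgfbr2 at -0.0026 and Skil at -0.00080. Eng was at 0.042 with equal totals without Lars2, a scaling that moved the median of all genes from 0.0031 to 0.057 and Eng along with it, and Smad4 at -0.011 with quantile normalization. With each library left out, Tgfbr2 ran from -0.068 to 0.13, Eng from -0.12 to 0.16, Smad4 from -0.081 to 0.10, Skil from -0.16 to 0.24 and Fancg from -0.36 to 0.067, the last positive without WT replicate 7. Tgfb1, Smad2, Smad3, Smad7 and Ski kept their sign in every fit that gave a value, but not their size. With each library left out, Tgfb1 ran from 0.039 (without WT replicate 2) to 0.23 (without WT replicate 7), Tgfbr1 from -0.19 to -0.028 (without KO replicate 7), Smad2 from -0.29 to -0.077, Smad3 from -0.32 to -0.11 and Ski from -0.34 to -0.14, and without the pair low in Y-linked genes Tgfb1 was at 0.0025. Smad3 has none with quantile normalization, without trend, with the block or with the filter at 50. Correlated pairs numbered 13 with equal totals without Lars2, against 0, under a factor that all genes of a library share. The spread of Tgfbr1, Smad3 and Smad4 was no larger than the counting error of their reads.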
